A study of Mus musculus with 9 samples.

Results

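The expression of 10 genes of the Notch pathway and of the preadipocyte state was examined in 3T3-L1 cells, an established mouse line of fibroblast-like preadipocytes that turn into fat cells under a hormone cocktail. The genes were chosen by name and were matched by gene symbol, each to 1 of the 54532 genes in the tables. They were the receptors Notch1, Notch2 and Notch3, the ligands Jag1 and Dll1, the pathway targets Hes1 and Hey1, the preadipocyte factor Dlk1, the transcription factor Sox9 and the growth factor receptor Pdgfra. Poly A RNA was sequenced in 9 libraries, 3 in each of 3 groups. In the Undifferentiated group, cells had been held confluent for 3 days in medium with calf serum and received no cocktail. In the Differentiated group, confluent cells were then kept for 3 days in a lysine-containing medium with fetal bovine serum, insulin (10 μg/mL), the glucocorticoid dexamethasone (1 μM), the phosphodiesterase inhibitor IBMX (0.5 mM) and the PPARγ agonist rosiglitazone (1 μM). The Lysfree group had the same cocktail and serum for the same time, with no lysine added to the medium. The cell line was shared by all the groups. Nothing in the labels says that libraries of a group came from separate cultures, so the p-values measure at most the spread between these samples. In Differentiated against Undifferentiated cells the fit used a spread shared by genes of like abundance, not that of each gene. Its very small p-values are therefore not comparable with those that involve Lysfree cells. Because serum, basal medium, days in culture and cocktail changed together, their parts in a difference from the Undifferentiated group cannot be told apart.

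Notch receptors are single-pass membrane proteins that are switched on by ligands on neighbouring cells. ADAM10 and the γ-secretase complex then cut the receptor, and the freed intracellular domain binds RBPJ and Mastermind proteins on DNA and switches on genes of the Hes and Hey families. Dlk1, also called preadipocyte factor Pref-1, resembles a Notch ligand but lacks the domain that activates the receptor. It is abundant in 3T3-L1 preadipocytes, is lost as they become adipocytes, and holds back differentiation, in part through Sox9, which represses the C/EBP genes of the adipogenic programme.

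All 10 are protein-coding genes, placed here by the coordinates of the tables (GRCm38). Notch1 lies at chr2:26457903-26516663 (- strand), Notch2 at chr3:98013527-98150361 (+), Notch3 at chr17:32120820-32166880 (-), Jag1 at chr2:137081456-137116644 (-) and Dll1 at chr17:15367354-15376872 (-). Hes1 lies at chr16:30064384-30067796 (+), Hey1 at chr3:8663359-8667256 (-), Dlk1 at chr12:109452823-109463336 (+), Sox9 at chr11:112782224-112787760 (+) and Pdgfra at chr5:75152292-75198215 (+). Exons of Notch1 overlap those of 0610009E02Rik on the opposite strand over 7.50% of their bases, and Dll1 overlaps A930024N18Rik over 20.5%. These partners had 163 and 1 counts over the 9 libraries against 8202 and 41 for Notch1 and Dll1, and a strand setting is not given in the sources used here, so reads in the overlaps cannot be assigned with certainty.

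Total counts ran from 15880144 to 21806693 per library, and 18442 to 19536 genes had a count above 0. The Lysfree 1 library stood apart from its group. Its correlation of depth-scaled log2 counts was 0.982 with each of the other Lysfree libraries, against 0.993 between those. Counts of Lysfree DEGs among the chosen genes, the other Notch pathway genes and the other preadipocyte markers are given with and without Lysfree 1. For adipocyte and fibroblast markers the DEGs were not recounted without Lysfree 1. The 6 fibroblast markers (collagens, Vim, S100a4 and Fn1) were all at or above 1 FPKM (fragments per kilobase of gene length, scaled to library depth) in every group. Their summed level was 5278 to 5753 FPKM in Undifferentiated, 1346 to 1356 in Differentiated and 2503 to 2577 in Lysfree libraries. The summed level of 9 adipocyte markers was 314 to 396 FPKM in Undifferentiated, 6901 to 7256 in Differentiated and 292 to 408 in Lysfree libraries, with Slc2a4 at no more than 3 counts in each Lysfree library. The alike sums of Undifferentiated and Lysfree libraries hide opposite moves. Between these groups, 1 of the 9 was a higher and 4 were lower DEGs in Lysfree cells, beside 5.52% higher and 8.76% lower of all genes tested. Mean Cd36 was 16.6 FPKM in Undifferentiated and 72.7 in Lysfree cells, and mean Adipoq was 57.8 and 4.18. Of the 6 fibroblast markers, 0 were higher and 3 lower DEGs there, beside the same shares of all genes. Fn1 still had its highest mean in Lysfree cells, at 719 FPKM against 380 in Undifferentiated and 58.6 in Differentiated cells. The fibroblast sum differed between all 3 groups, and the adipocyte sum between Differentiated and the other groups. Single markers also differed, and the part of these differences in the results was not tested. In bulk RNA, fewer cells of a type and less RNA per cell cannot be told apart. Markers of macrophages, endothelium, muscle and epithelium summed to under 1 FPKM in every library.

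Among the 10 genes, Dlk1 stood highest in every group. Its FPKM value was 267, 272 and 271 in the Undifferentiated libraries, 29.6, 29.9 and 31.5 in the Differentiated libraries and 61.1, 67.5 and 67.0 in the Lysfree libraries. The 3 groups did not overlap, and Lysfree stood between the other two. By mean level, Dlk1 ranked 157 among all genes in the Undifferentiated, 1905 in the Differentiated and 745 in the Lysfree group. Dlk1 fell 9.06-fold in Differentiated against Undifferentiated cells (log2 fold change -3.18 ± 0.052, SE), with an edgeR adjusted p below the smallest number the software returns. It fell 4.01-fold in Lysfree against Undifferentiated cells (log2 fold change -2.0 ± 0.093, adjusted p = 4.9e-18). Between the media, it was 2.25-fold higher without lysine (log2 fold change 1.17 ± 0.086, adjusted p = 3.9e-10).

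**Figure D1:**
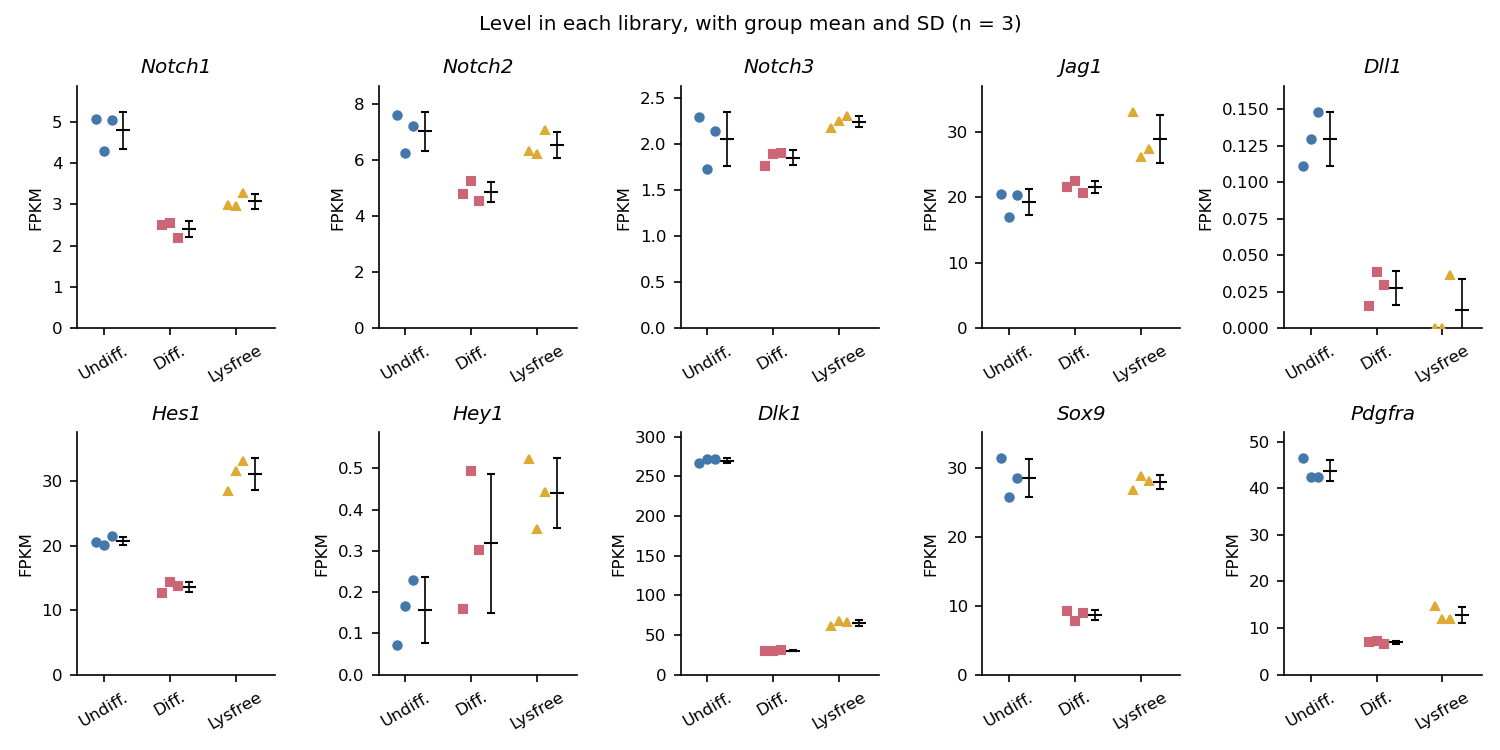
FPKM of each of the 10 genes in each library (points, 3 per group) with the group mean and SD (bars); each y axis starts at 0 and has its own scale. Dlk1 and Pdgfra were highest in all 3 Undifferentiated libraries, Sox9 was low in Differentiated libraries alone, and Hes1 was highest in all 3 Lysfree libraries.

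Pdgfra, the platelet-derived growth factor receptor that marks adipocyte progenitors, stood in the same order. Its FPKM value was 46.4, 42.4 and 42.4 in Undifferentiated, 6.98, 7.26 and 6.58 in Differentiated, and 14.8, 11.9 and 11.9 in Lysfree libraries. It fell 6.42-fold with the full cocktail medium (log2 fold change -2.68 ± 0.058, adjusted p below the smallest number returned) and 3.29-fold in Lysfree cells (log2 fold change -1.72 ± 0.10, adjusted p = 3.6e-15). The difference between the media was 1.94-fold, higher in Lysfree (log2 fold change 0.95 ± 0.10, adjusted p = 1.1e-07). That value lies just under the 2-fold limit, and it crossed the limit without Lysfree 2 (1.004), without Lysfree 3 (1.003) and with library sizes alone as the scaling (1.03). Over the 9 libraries their log2(FPKM + 1) values had a Pearson r of 0.992, as a description of libraries that fall into 3 groups.

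The 250 bases before the RefSeq start of these 2 genes are shown because the pair moved together, with build GRCm38.p6 and 5′ to 3′ on the gene's strand. They were searched for the core of the RBPJ binding site, TGGGAA, on both strands (its reverse complement is TTCCCA), and a match would stand in capitals. Neither holds one.
Dlk1, chr12:109452573-109452822, + strand: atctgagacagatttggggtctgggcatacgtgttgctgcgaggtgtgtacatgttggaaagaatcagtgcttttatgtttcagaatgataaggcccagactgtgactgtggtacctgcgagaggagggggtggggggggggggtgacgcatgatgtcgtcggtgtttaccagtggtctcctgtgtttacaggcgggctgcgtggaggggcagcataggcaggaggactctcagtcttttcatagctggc
Pdgfra, chr5:75152001-75152250, + strand: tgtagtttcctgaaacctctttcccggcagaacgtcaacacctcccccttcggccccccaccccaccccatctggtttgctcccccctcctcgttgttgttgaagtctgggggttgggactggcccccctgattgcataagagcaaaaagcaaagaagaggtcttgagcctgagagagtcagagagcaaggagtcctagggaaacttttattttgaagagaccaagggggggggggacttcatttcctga

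Of the 10 genes, 7 had a promoter in the RefSeq table (8 promoters of 300 bases, from 250 before to 50 after the start), and none of the 8 held TGGGAA or TTCCCA. Over all 32851 promoters in the table the share was 25.6%. Hes1, Hey1 and Sox9 were not among the 7. The absence of a match says only that these letters are not in these windows.

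Sox9 differed from Dlk1 and Pdgfra in where the Lysfree libraries stood. Sox9 measured 31.4, 25.8 and 28.5 FPKM in Undifferentiated, 9.18, 7.84 and 8.92 in Differentiated, and 26.8, 28.9 and 28.1 in Lysfree libraries. Lysfree values lay inside the Undifferentiated range and far above every Differentiated value. Sox9 fell 3.37-fold in Differentiated against Undifferentiated cells (log2 fold change -1.75 ± 0.067, adjusted p = 2.4e-148) and was 3.38-fold higher in Lysfree than in Differentiated cells (1.76 ± 0.10, adjusted p = 6.7e-12). Lysfree and Undifferentiated cells differed by 0.015 ± 0.10 on the log2 scale (95% interval -0.19 to 0.22, adjusted p = 0.93).

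The receptors were expressed at lower levels. Notch1 had FPKM values of 5.06, 4.28 and 5.04 in Undifferentiated, 2.49, 2.55 and 2.19 in Differentiated, and 2.98, 2.96 and 3.27 in Lysfree libraries. The groups did not overlap and stood in the order of Dlk1. Notch1 fell 2.02-fold in Differentiated cells (log2 fold change -1.02 ± 0.073, adjusted p = 7.4e-43), and its call as a DEG rests on the 2-fold limit. It was a DEG in 9 of 14 alternatives, over which the log2 fold change ran from -1.09 to -0.76. Among those that lost the call, it was -0.98, -0.97 and -0.96 without Undifferentiated 1, Undifferentiated 3 or Differentiated 3. It fell 1.51-fold in Lysfree against Undifferentiated cells (-0.59 ± 0.11, adjusted p = 4.3e-05) and was 1.33-fold higher in Lysfree than in Differentiated cells (0.42 ± 0.11, adjusted p = 0.0042), a call that 12 of 14 alternatives kept and both limma fits lost (adjusted p up to 0.064).

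Notch2 was the most abundant of the 3 receptors per unit of gene length. Its FPKM value was 7.62, 6.27 and 7.22 in Undifferentiated, 4.80, 5.27 and 4.56 in Differentiated, and 6.32, 6.24 and 7.10 in Lysfree libraries, with every Differentiated value under all the others. Notch2 fell 1.47-fold in Differentiated cells (log2 fold change -0.55 ± 0.068, adjusted p = 1.3e-15) and was 1.41-fold higher in Lysfree than in Differentiated cells (0.49 ± 0.10, adjusted p = 0.00049). Lysfree and Undifferentiated cells differed by -0.06 ± 0.11 (95% interval -0.27 to 0.16, adjusted p = 0.72). Like Sox9, its Lysfree and Undifferentiated values overlapped.

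Notch3 varied least. It measured 2.30, 1.73 and 2.14 FPKM in Undifferentiated, 1.76, 1.90 and 1.91 in Differentiated, and 2.18, 2.26 and 2.31 in Lysfree libraries. Neither medium differed from Undifferentiated beyond the spread (adjusted p = 0.20 for Differentiated, log2 fold change -0.17, 95% interval -0.38 to 0.04, and adjusted p = 0.39 for Lysfree, 0.18, interval -0.12 to 0.47). All 3 Lysfree libraries lay above the Differentiated ones (log2 fold change 0.34 ± 0.13, adjusted p = 0.039), but that call was lost in 9 of 14 alternatives, with adjusted p up to 0.18. Without Undifferentiated 2, the lowest of its group, the log2 fold change in Differentiated against Undifferentiated cells was -0.28 (adjusted p = 0.022).

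Jag1, the most abundant of the classical Notch ligands measured here, was highest in Lysfree cells. It measured 20.5, 17.0 and 20.3 FPKM in Undifferentiated, 21.5, 22.6 and 20.7 in Differentiated, and 33.1, 26.2 and 27.3 in Lysfree libraries. Every Lysfree value was above all other values, and Lysfree 1 was the highest of them. Jag1 was 1.55-fold higher in Lysfree than in Undifferentiated cells (log2 fold change 0.63 ± 0.11, adjusted p = 1.1e-05) and 1.40-fold higher than in Differentiated cells (0.48 ± 0.097, adjusted p = 0.00033). Without Lysfree 1 these log2 fold changes were 0.50 and 0.36, both still past the test. Between Differentiated and Undifferentiated cells the difference was 1.10-fold (0.14 ± 0.058, adjusted p = 0.038), and the call was lost in 10 of 14 alternatives, among them the one without Undifferentiated 2, the lowest library (log2 fold change 0.06, adjusted p = 0.41).

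Dll1, the delta-like ligand, was near the limit of detection. It had 10, 12 and 10 counts in Undifferentiated, 1, 3 and 2 in Differentiated, and 0, 0 and 3 in Lysfree libraries. Taking 3 counts per library as the floor, Dll1 was at least 3.17-fold lower in Differentiated (adjusted p = 0.011) and at least 3.22-fold lower in Lysfree cells (adjusted p = 0.0050) than in Undifferentiated cells. Both media groups lay at or under the floor, so no fold between them is given.

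Hes1, the transcriptional repressor that is the best known Notch target, moved in opposite directions in the 2 media. Its FPKM value was 20.5, 20.1 and 21.5 in Undifferentiated, 12.7, 14.3 and 13.7 in Differentiated, and 28.4, 31.6 and 33.2 in Lysfree libraries. The 3 groups did not overlap. Hes1 fell 1.55-fold in Differentiated (log2 fold change -0.63 ± 0.082, adjusted p = 5.2e-14) and rose 1.55-fold in Lysfree against Undifferentiated cells (0.63 ± 0.11, adjusted p = 1.6e-05). Lysfree exceeded Differentiated cells 2.39-fold (1.26 ± 0.11, adjusted p = 4.9e-09), and each of these 3 differences passed the adjusted p in all 14 alternatives.

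Hey1, another Notch target, was scarce. It had 5, 12 and 12 counts in Undifferentiated, 8, 30 and 16 in Differentiated, and 30, 22 and 28 in Lysfree libraries. It was 2.95-fold higher in Lysfree than in Undifferentiated cells (log2 fold change 1.56 ± 0.42, adjusted p = 0.0033), and the 2 groups did not overlap. The 2.08-fold difference between Differentiated and Undifferentiated cells (1.05 ± 0.44, adjusted p = 0.037) came from overlapping groups and was lost in 9 of 14 alternatives, among them those without Differentiated 2 (0.57, adjusted p = 0.46), Differentiated 3 (1.09, adjusted p = 0.055) or Undifferentiated 1 (0.70, adjusted p = 0.23). Between the media Hey1 differed by 0.50 ± 0.38 (95% interval -0.29 to 1.28, adjusted p = 0.35).

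**Figure D2:**
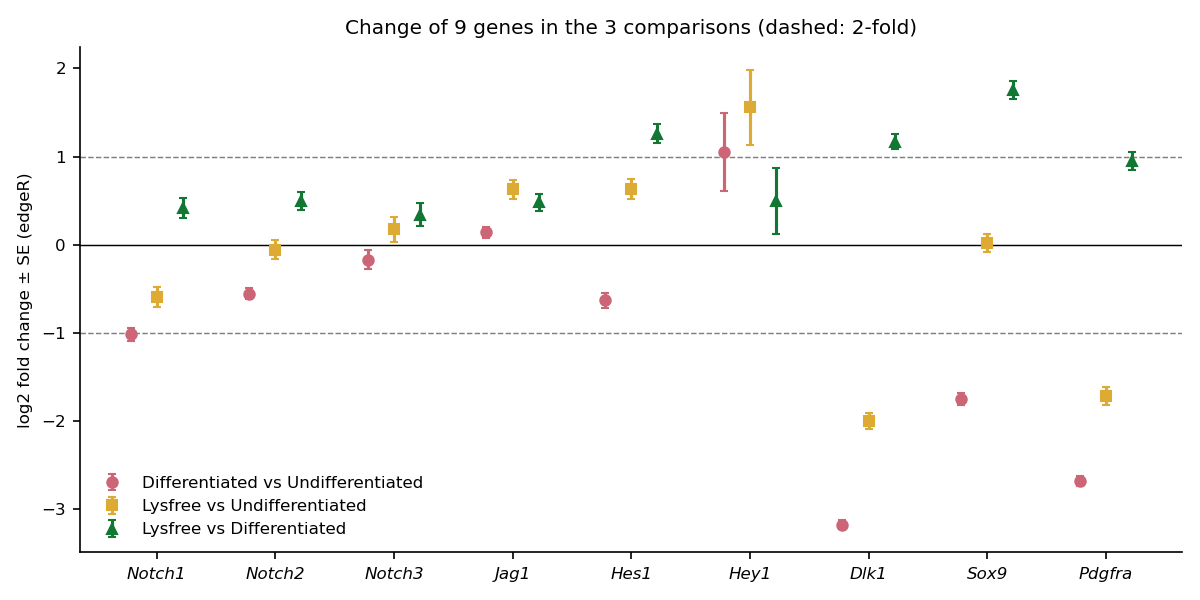
Log2 fold change ± SE (edgeR, 3 against 3 libraries) of 9 of the 10 genes in the 3 comparisons; dashed lines mark 2-fold, and Dll1 is left out because it was at the floor in 2 groups. Dlk1 was lowest in Differentiated against Undifferentiated cells at -3.18, and Sox9 reached 1.76 in Lysfree against Differentiated cells beside 0.015 in Lysfree against Undifferentiated cells.

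Counted together, 6 of the 10 genes were differentially expressed (DEGs, adjusted p under 0.05 and at least 2-fold) in Differentiated against Undifferentiated cells, 1 higher (Hey1) and 5 lower (Notch1, Dll1, Dlk1, Sox9 and Pdgfra), where 21.8% of 24402 genes tested were DEGs, 10.4% higher and 11.4% lower. In Lysfree against Undifferentiated cells 4 were DEGs, Hey1 higher and Dll1, Dlk1 and Pdgfra lower, against 14.3% of all genes (5.52% higher and 8.76% lower), and the count was 4 without Lysfree 1. In Lysfree against Differentiated cells 3 were DEGs, all higher (Hes1, Dlk1 and Sox9), against 18.7% of all genes (8.14% higher and 10.5% lower), and the count was 3 without Lysfree 1. With adjusted p alone the counts were 9, 7 and 8, beside 46.1%, 35.1% and 38.5% of all genes. In the last comparison all 8 were higher in Lysfree cells, where 19.7% of all genes passed in that direction. The 3 comparisons share libraries pairwise and are not independent. FPKM values of the 2 groups did not overlap for 8, 7 and 8 of the 10, beside 50.9%, 43.5% and 46.6% of all genes. Of the 10, 9 passed edgeR's filter on low counts in each comparison (Dll1 did not), and among all genes that passed it 32.3%, 21.6% and 28.1% were DEGs. The medians over the 10 were -0.83, -0.02 and 0.49 on the log2 scale, beside 0.02, -0.02 and -0.06 over all genes tested.

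The genes whose level ran most like 3 of these were sought by Pearson r of log2(FPKM + 1) over the 9 libraries, among 11624 genes with a mean of at least 1 FPKM. For Dlk1 they were Pltp (r = 0.9994), a phospholipid transfer protein, Ces1a (0.9988), a carboxylesterase of a family of close copies among which reads may be split, and Ip6k1 (0.9985), an inositol phosphate kinase. For Hes1 they were Rasa3 (0.9957), Fyn (0.9945), a Src family kinase, and Porcn (0.9936), which acylates Wnt proteins. For Jag1 they were Smchd1 (0.9934), Pabpc1 (0.9848), a poly(A) binding protein, and Socs4 (0.9824). With 3 groups of libraries such values are common, and 576, 287 and 137 genes had an r over 0.95 with Dlk1, Hes1 and Jag1.

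Beyond these genes, a list of 65 other Notch pathway genes was followed by role. In Differentiated against Undifferentiated cells 60 could be tested, and 5 were higher and 12 lower DEGs, that is 28.3% beside 21.8% of all genes, with a median log2 fold change of -0.42 beside 0.02. In Lysfree against Undifferentiated cells 3 of 61 were higher and 7 lower, 16.4% beside 14.3%, with a median of -0.09 beside -0.02. Between the media 8 of 60 were higher and 3 lower in Lysfree, 18.3% beside 18.7%, with a median of 0.36 beside -0.06. Without Lysfree 1 the last 2 comparisons gave 9 DEGs each, 2 higher and 7 lower, and 6 higher and 3 lower. The other classical ligands Jag2, Dll3 and Dll4 and the receptor Notch4 were all below 1 FPKM in each group.

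**Figure D3:**
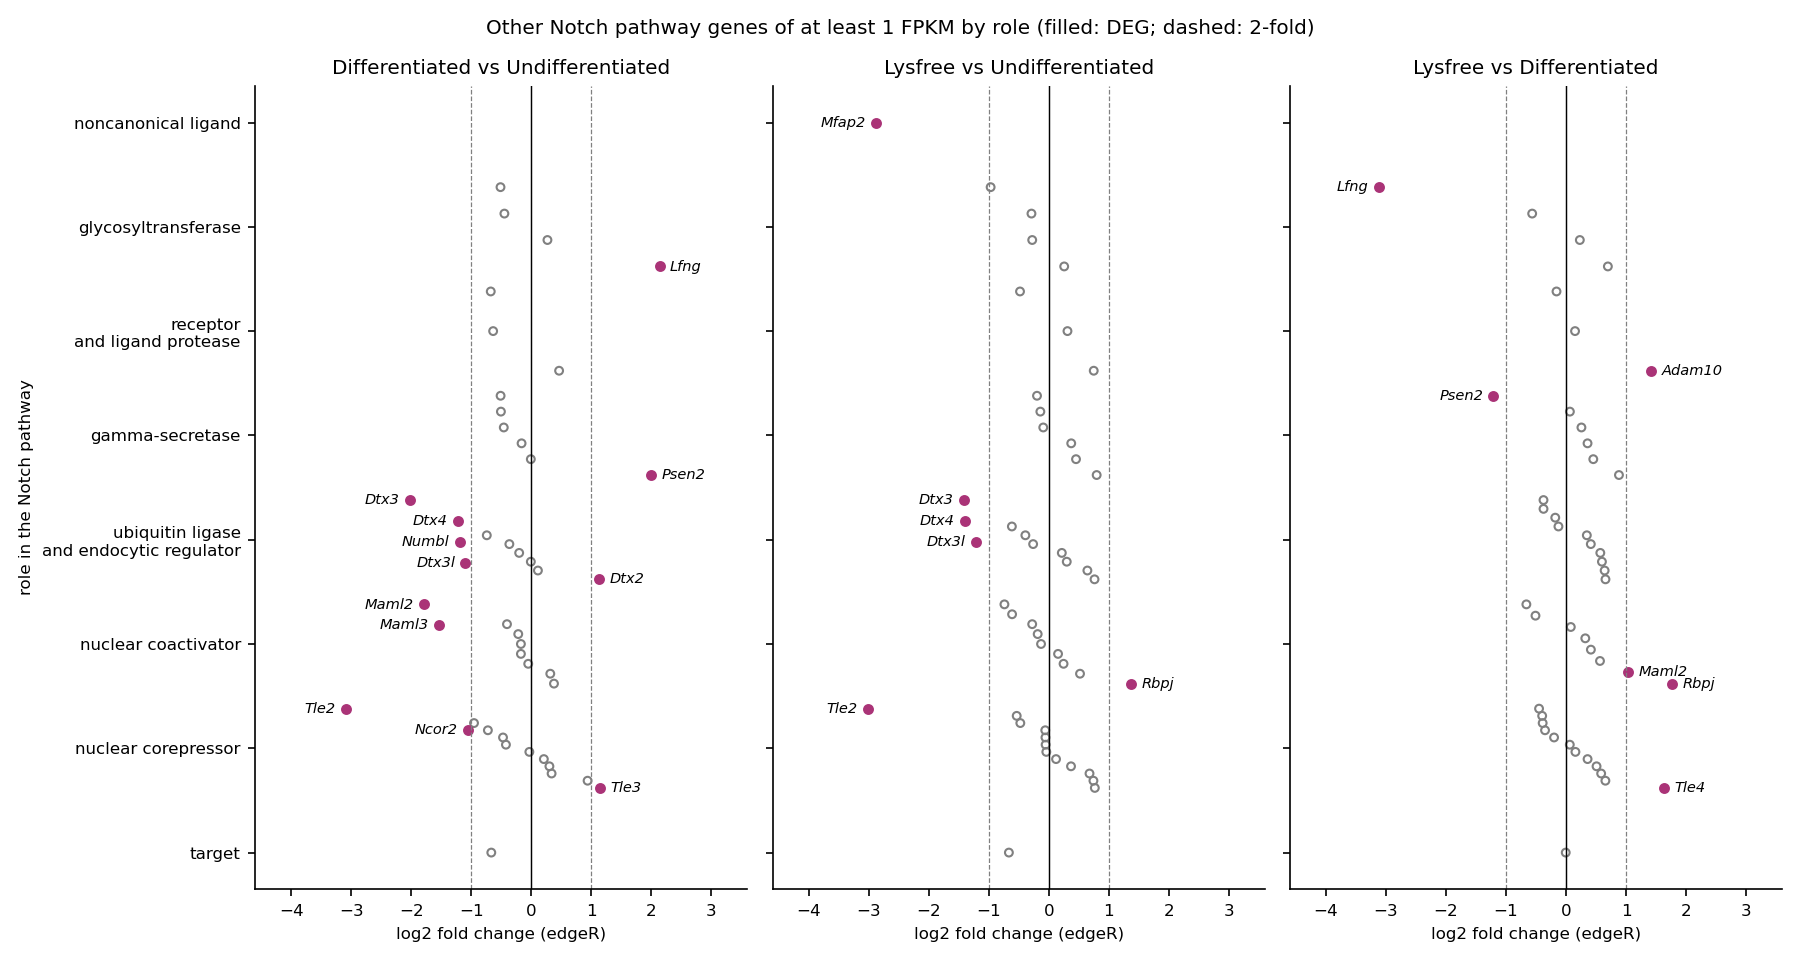
Log2 fold change (edgeR) of the other Notch pathway genes with a mean of at least 1 FPKM in either group and above 3 counts in some library of both, by role (45, 46 and 44 genes); filled points are DEGs and are named, and dashed lines mark 2-fold. Lfng and Psen2 lie right of 2-fold in Differentiated against Undifferentiated cells and left of it in Lysfree against Differentiated cells, while Rbpj lies right of it in both Lysfree panels.

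Receptor processing was split between its enzymes. Lfng, the Fringe enzyme that adds sugars to Notch receptors and so tunes their choice of ligand, had FPKM values of 2.00, 2.46 and 1.99 in Undifferentiated, 10.1, 8.94 and 10.1 in Differentiated, and 0.909, 1.09 and 1.19 in Lysfree libraries. It rose with the full medium (log2 fold change 2.14 ± 0.12, adjusted p = 5.1e-70) and was lower in Lysfree than in Differentiated cells (-3.12 ± 0.16, adjusted p = 1.5e-12). Psen2, a catalytic subunit of γ-secretase, rose from 3.99 ± 0.21 (SD, n = 3) to 16.2 ± 0.10 FPKM in Differentiated cells and stood at 6.71 ± 0.067 in Lysfree cells. Its log2 fold change was 2.00 in Differentiated against Undifferentiated cells (adjusted p = 8.1e-134) and -1.21 between the media (adjusted p = 2.4e-09). Adam10, the protease that cuts the receptor once a ligand has acted on it, ran the other way. It stood at 33.5 ± 0.90 FPKM in Undifferentiated, 21.4 ± 0.56 in Differentiated and 54.6 ± 4.5 in Lysfree cells. Its log2 fold change was 1.42 ± 0.090 between the media (adjusted p = 3.4e-11).

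Rbpj, the DNA-binding partner of the freed receptor domain, was highest in Lysfree cells. Rbpj measured 4.96, 4.72 and 5.51 FPKM in Undifferentiated, 3.81, 4.17 and 3.65 in Differentiated, and 15.6, 11.1 and 11.3 in Lysfree libraries. It was higher in Lysfree than in Undifferentiated (log2 fold change 1.37 ± 0.12, adjusted p = 1.2e-11) and Differentiated cells (1.77 ± 0.12, adjusted p = 8.0e-11). Without Lysfree 1, which was the highest, these values were 1.18 and 1.58. The pseudogene Rbpj-ps3 also took reads, 104 to 156 counts in Undifferentiated, 101 to 147 in Differentiated and 339 to 466 in Lysfree libraries, against 752 to 3499 for Rbpj, so the exact level of Rbpj is uncertain to that extent. Maml2, a Mastermind coactivator, fell in Differentiated against Undifferentiated cells (-1.79 ± 0.10, adjusted p = 5.6e-64) and stood at 2.66 FPKM in Lysfree against 1.35 in Differentiated cells (1.04 ± 0.17, adjusted p = 2.4e-05, and 0.96 without Lysfree 1).

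Rbpj and Lfng had the largest differences between the media among the genes just named, and a RefSeq promoter of each held TGGGAA on both strands. The RefSeq start used for Rbpj lies inside the gene, which spans chr5:53466152-53657362 (+ strand) by the deposited coordinates. Its matches are therefore not upstream of the whole gene. The 30 bases around each match are shown, 5′ to 3′ on the gene's strand in GRCm38.p6, with the match in capitals.
Rbpj, chr5:53590185-53590214, + strand, match 149 bases before the start: aatgaaaaaggcTGGGAAcccgcggcgagc
Rbpj, chr5:53590269-53590298, + strand, match 65 bases before the start: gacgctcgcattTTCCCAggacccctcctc
Lfng, chr5:140607194-140607223, + strand, match 135 bases before the start: ccagctgggtggTTCCCAgccccttgtccg
Lfng, chr5:140607221-140607250, + strand, match 108 bases before the start: ccgtatcccacgTGGGAAggagagatctcc

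The second Rbpj match also lies in the window of a further start of that gene. Of the 54 listed pathway genes with a promoter in the table, 16 held a match (29.6%), beside 28.3% of all 27025 genes with a promoter there. A match is a description of the letters and not a bound site.

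The Groucho family corepressors, which turn off genes with Hes proteins, did not move together. Tle2 had FPKM values of 28.5, 27.2 and 27.6 in Undifferentiated, 3.30, 3.18 and 3.51 in Differentiated, and 2.61, 3.44 and 3.93 in Lysfree libraries. It fell in both media (log2 fold change -3.09 ± 0.069 and -3.01 ± 0.13, adjusted p below the smallest number returned and 2.5e-19), and the media did not differ past the test (0.06 ± 0.14, adjusted p = 0.75). Tle3 rose in Differentiated against Undifferentiated cells (1.15 ± 0.063, adjusted p = 1.9e-73). Tle4 was higher in Lysfree than in Differentiated cells, at 3.86 ± 0.26 against 1.30 ± 0.11 FPKM (1.63 ± 0.15, adjusted p = 9.6e-09).

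Deltex proteins are ubiquitin ligases that bind Notch receptors. Dtx3 fell from 62.9 ± 2.2 FPKM in Undifferentiated to 15.8 ± 0.18 in Differentiated and 22.8 ± 4.3 in Lysfree cells (log2 fold change -2.02 and -1.42, adjusted p = 1.3e-216 and 6.3e-12). Dtx4 fell in Lysfree against Undifferentiated cells (-1.39 ± 0.14, adjusted p = 3.0e-10), and Dtx2 rose in Differentiated against Undifferentiated cells (1.13 ± 0.068, adjusted p = 2.2e-61). Mfap2, a microfibril protein that can bind Jagged and Notch proteins, had 49, 40 and 20 counts in Undifferentiated, 1 in each Differentiated and 3, 7 and 3 in Lysfree libraries. It was at least 10.4-fold lower in Differentiated cells (adjusted p = 8.9e-16), and its log2 fold change in Lysfree against Undifferentiated cells was -2.88 ± 0.46 (adjusted p = 3.7e-06). Of the listed targets, Hey2, Heyl and Nrarp were at 0 in every library. Hes6, a Hes family member that can antagonise Hes1, measured 15.9, 20.8 and 18.4 FPKM in Undifferentiated, 11.8, 12.3 and 11.3 in Differentiated, and 8.88, 12.7 and 12.03 in Lysfree libraries. It was lower than in Undifferentiated cells in both media, by less than 2-fold (log2 fold change -0.67 ± 0.089, adjusted p = 2.4e-13, and -0.66 ± 0.14, adjusted p = 0.00027), where Hes1 and Hey1 were higher in Lysfree cells. The media did not differ past the test for Hes6 (-0.0045 ± 0.14, 95% interval -0.30 to 0.29, adjusted p = 0.98).

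A list of 14 other preadipocyte and progenitor markers was read beside Dlk1 and Pdgfra, of which Dpp4 was at 0 in every library and 13 were tested. In Differentiated against Undifferentiated cells 7 were lower and 0 higher DEGs, beside 11.4% lower and 10.4% higher over all genes, with a median log2 fold change of -1.37 beside 0.02. In Lysfree against Undifferentiated cells 3 were lower and 1 higher, beside 8.76% and 5.52%, with a median of -0.10 beside -0.02. In Lysfree against Differentiated cells 9 were higher and 1 lower, beside 8.14% and 10.5%, with a median of 1.31 beside -0.06. These last 2 counts were the same without Lysfree 1. At adjusted p alone 0, 3 and 10 were higher and 12, 6 and 1 lower, where 46.1%, 35.1% and 38.5% of all genes passed in either direction.

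**Figure D4:**
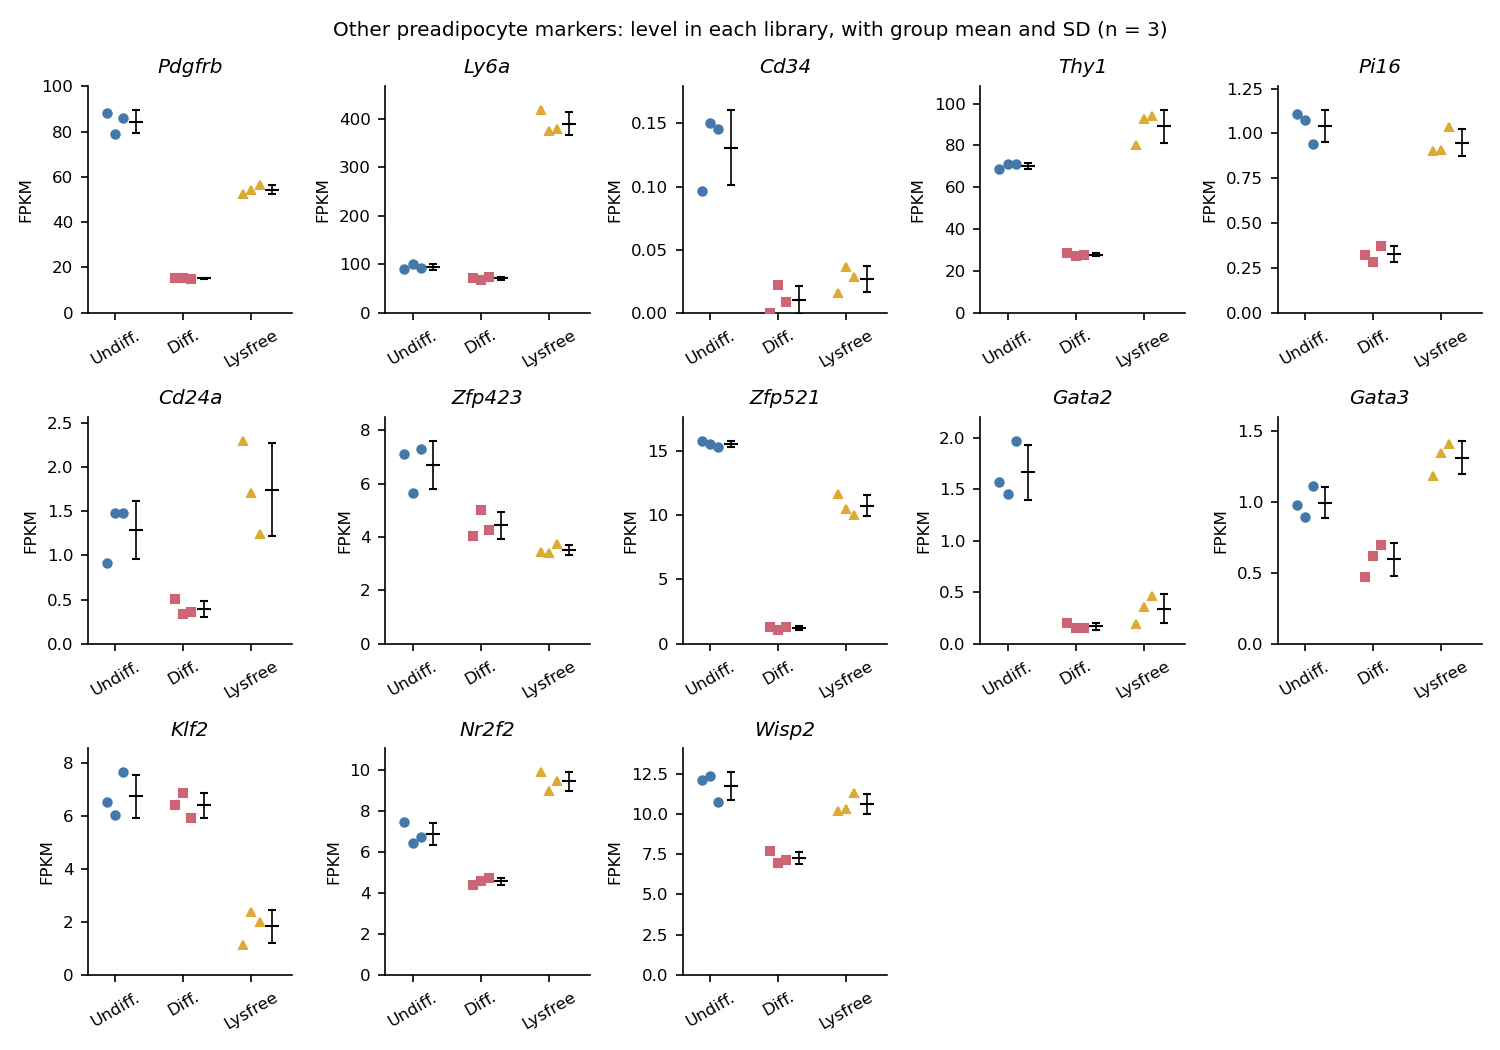
FPKM of 13 preadipocyte and progenitor markers in each library (points, 3 per group) with the group mean and SD (bars); each y axis starts at 0. Zfp521 and Pdgfrb were lowest in all 3 Differentiated libraries, Ly6a was highest in all 3 Lysfree libraries, and Klf2 was lowest in all 3 Lysfree libraries.

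Zfp521, a zinc finger protein that holds back adipocyte commitment, had FPKM values of 15.7, 15.5 and 15.3 in Undifferentiated, 1.32, 1.04 and 1.29 in Differentiated, and 11.6, 10.5 and 10.0 in Lysfree libraries. It fell in Differentiated cells (log2 fold change -3.71 ± 0.088, adjusted p below the smallest number returned) and was higher in Lysfree than in Differentiated cells (3.20 ± 0.13, adjusted p = 2.6e-14). Pdgfrb, the receptor related to Pdgfra, stood at 84.4 ± 5.0 FPKM in Undifferentiated, 15.2 ± 0.31 in Differentiated and 54.3 ± 2.0 in Lysfree cells, with a log2 fold change of -2.50 with the full medium (adjusted p below the smallest number returned) and 1.90 between the media (adjusted p = 2.2e-13). Cd24a, a surface marker of early progenitors, also fell with the full medium (-1.72 ± 0.28, adjusted p = 3.8e-09) and was higher in Lysfree than in Differentiated cells (2.20 ± 0.29, adjusted p = 2.1e-06).

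Ly6a, which encodes the surface antigen Sca-1, went past its Undifferentiated level. Its FPKM value was 89.5, 101 and 91.5 in Undifferentiated, 72.5, 67.4 and 73.8 in Differentiated, and 418, 374 and 378 in Lysfree libraries, and Lysfree was far above both other groups. The log2 fold change was 2.10 ± 0.10 against Undifferentiated (adjusted p = 1.0e-17) and 2.52 ± 0.090 against Differentiated cells (adjusted p = 3.4e-15). Gata2, a transcription factor that represses Pparg, fell in both media (-3.33 ± 0.22, adjusted p = 2.9e-49, and -2.23 ± 0.25, adjusted p = 4.0e-09). Klf2, another repressor of Pparg, fell in Lysfree alone among the tests run, with a log2 fold change of -1.82 ± 0.21 against Undifferentiated (adjusted p = 1.0e-08) and -1.73 ± 0.21 against Differentiated cells (adjusted p = 7.1e-07), beside -0.09 ± 0.12 in Differentiated against Undifferentiated cells (adjusted p = 0.53).

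The neighbours of Dlk1 in its imprinted domain were barely detected. Meg3, the noncoding RNA next to Dlk1, and Dio3 had 0 counts in all 9 libraries. Both were thus under the floor of 3 counts per library used here, and a low level is not excluded. Rian had 33, 19 and 21 counts in Undifferentiated, 0 in each Differentiated and 0, 5 and 3 in Lysfree libraries, and was at least 7.19-fold lower in Differentiated cells (adjusted p = 1.8e-13). Rtl1 had 27, 25 and 21 counts in Undifferentiated, 9, 5 and 2 in Differentiated, and 1, 2 and 1 in Lysfree libraries, and was at least 7.30-fold lower in Lysfree than in Undifferentiated cells (adjusted p = 1.8e-06). Mirg had 9, 2 and 10 counts in Undifferentiated, 3, 0 and 0 in Differentiated, and 1, 4 and 16 in Lysfree libraries. Its groups overlapped, and 1 Undifferentiated library was itself under the floor of 3 counts, so no fold is given. Mirg was lower in Differentiated than in Undifferentiated cells past the test (adjusted p = 0.030), but was a DEG in only 4 of 13 alternatives. It no longer passed when the fit left out Undifferentiated 1 (0.097), Undifferentiated 3 (0.22), Differentiated 2 (0.15) or Differentiated 3 (0.13). None of the 3 differed between the media at the adjusted p (0.082, 0.11 and 0.088). In that comparison Rian passed without Lysfree 1 (adjusted p = 0.028) and in the fit of all 9 libraries (0.022), Rtl1 in the latter (0.037), and Mirg without Lysfree 1 (0.0046), Lysfree 2 (0.043) or Differentiated 1 (0.012), so these calls depend on the setting.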

How the data were processed

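Poly A RNA of 9 libraries of 3T3-L1 cells was sequenced. The authors aligned reads with HISAT2 2.0.5 to the mouse genome (mm10) and counted them with featureCounts 1.5.0-p3. They deposited raw counts per gene and FPKM values, and their strand setting and annotation release are not given in the sources used here. The FPKM values were scaled by gene length and by a depth that was not exactly the total count. Their ratio to values scaled by the total was 0.988 to 0.994 in Undifferentiated, 1.03 to 1.04 in Differentiated and 0.932 to 0.953 in Lysfree libraries. FPKM comparisons between groups carry these factors. Gene positions come from the deposited tables. Of 54532 gene identifiers, 54409 were in GENCODE vM21 and 53462 had the same start and end there.

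Counts were tested with edgeR 4.0.16 in R 4.3.3 (TMM scaling, quasi-likelihood test, 6 libraries per comparison, every gene with at least 1 read in the 6, Benjamini-Hochberg adjustment over all genes tested). This is the source of each adjusted p that is not credited to an alternative fit or to a left-out library. DEGs had an adjusted p under 0.05 and at least 2-fold change. In Differentiated against Undifferentiated cells the fit's prior degrees of freedom, the weight of the shared spread, were infinite, so no gene's own spread entered. They were 28.0 and 15.9 in Lysfree against Undifferentiated and against Differentiated cells. With edgeR's filter on low counts, the first comparison gave adjusted p = 2.5e-09 for Lfng and 2.1e-11 for Psen2, in place of 5.1e-70 and 8.1e-134. Errors of log2 fold changes are SE, and those of FPKM are SD with n = 3. Where 1 group had no more than 3 counts in each library, a fold given as "at least" sets the mean of the other group against 3 counts per library. It takes no account of counting error or of spread in either group, and is not a confidence limit. The scripts were tested on simulated data. Alternatives were DESeq2 1.42.0, other scalings and filters, 1 fit of all 9 libraries, a replicate block, limma 3.58.1 on log2(FPKM + 1) and log2(FPKM + 0.1), no fold limit, and leaving out each library.

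The 10 genes were all named. Of the pathway and marker lists, up to 4 rises and 4 falls per comparison with the largest log2 fold change were named, provided they were DEGs and either group averaged 1 FPKM or more, with every gene of the Dlk1 domain and the 3 genes most like Dlk1, Hes1 and Jag1. Hes6, the genes at 0 or under 1 FPKM, and genes with overlapping or copied sequence, were named after their values were seen. The genes and lists were chosen with earlier results of these data known. Promoters were taken from a RefSeq table of GRCm38.p6, and 7 of the 10 genes matched by symbol.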

Additional observations from a re-analysis of the deposited data

How the results depend on the processing

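For the 10 genes, 378 values kept their direction and side of the adjusted p, 30 fell short of it, 1 passed it and 8 changed sign, and 118 of the alternative counts of DEGs stayed within 1.5 times the reported one while 17 did not. All 8 were in Lysfree against Undifferentiated cells, where neither gene passed the test. Sox9 (0.015 reported) was -0.0031 with DESeq2 and with median-of-ratios size factors, -0.020 with edgeR's filter on low counts, -0.027 and -0.028 with limma on log2(FPKM + 1) and log2(FPKM + 0.1), -0.013 without Lysfree 2 and -0.052 to 0.087 over all fits that left out 1 library. Notch2 (-0.055 reported) was 0.0052 without Undifferentiated 1, in a range of -0.13 to 0.0052 over such fits. Mirg, also not called there (0.06 reported), ran from -1.35 to 0.57. Without the 2-fold limit, Differentiated against Undifferentiated cells gave 45 pathway genes and 12 preadipocyte markers, Lysfree against Undifferentiated cells 7 of the 10 genes, 33 pathway genes and 9 markers, and Lysfree against Differentiated cells 8 of the 10 and 38 pathway genes. With limma on log2(FPKM + 1), which understates the change of low genes, the counts of the 10, the pathway and the markers were 3, 9 and 4 in the first comparison and 2, 6 and 2 in the second, and 5 pathway genes and 5 markers in the third. With limma on log2(FPKM + 0.1) they were 3 of the 10 in the first and 6 pathway genes in the third. Over all genes the reported DEGs numbered 5329, 3426 and 4507, without the 2-fold limit 11260, 8428 and 9280, and with limma on log2(FPKM + 1) 2726, 1474 and 2198.

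Groups share replicate numbers, but same-numbered libraries deviated from their group means with r from -0.084 to 0.115 over 14195 genes, so the numbers were not taken as a pairing. With the replicate block, 5, 4 and 3 of the 10 genes, 17, 9 and 9 pathway genes and 7, 4 and 10 markers were DEGs, and 4837, 3179 and 4173 of all genes. Not every library deviated most like its own number in any comparison. Depth limits Dll1, Hey1 and the neighbours of Dlk1, whose counts per library were low.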
